A study of Rattus norvegicus with 18 samples.

Results

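Sdf2l1, Creld2 and Manf are 3 small soluble proteins of the endoplasmic reticulum (ER), and Sdf2 is the closest relative of Sdf2l1. Their probe sets were selected from the platform annotation as those given to exactly 1 of these genes, which left 4 of the 31042 probe sets on the array, 1 for each gene, or 4 of the 14217 genes that have a probe set of their own. The genes themselves were chosen from measured values of these arrays: Sdf2l1, Creld2 and Manf for a higher signal with doxycycline, and Sdf2 as a relative without such a difference. Their ratios of treated to untreated cells are therefore given as a description, without a test. All 4 probe sets lay in the brighter 50 percent of probe sets, the 15521 that were tested.

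The cells were clone #4S2 of INS-1, a rat insulinoma line that makes insulin and is used as a model of the pancreatic β-cell. The clone carries a Tet-ON regulator and a tetracycline-responsive construct for mouse insulin 2 with the mutation C96Y, fused to EGFP, a proinsulin that lacks a cysteine needed for a disulfide bond and misfolds in the ER. Total RNA came from cells kept for 24 or 48 h or for 5 days, either without drug or with doxycycline at 2 µg/ml. Each of these 6 groups was measured on 3 arrays from as many independent experiments. All of the cells, treated and untreated, carry both constructs and descend from 1 clone whose brightest EGFP-positive cells had been sorted. The study states, without showing the values, that this dose left Grp78 (Hspa5) and Chop mRNA and protein unchanged in parental INS-1 cells. No doxycycline-treated cells without the mutant insulin were analysed here. In these arrays the effect of the drug and that of the misfolded protein can therefore not be told apart. In RNA from a whole culture, a change in the RNA per cell and a change in the number of cells that make it cannot be told apart either.

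SDF2L1 is an ER protein of the MIR domain family that joins the large chaperone complex around the Hsp70 chaperone BiP (Hspa5) and its J-domain partner ERdj3 (Dnajb11), where it helps to keep unfolded clients from aggregating. CRELD2 is an EGF-repeat protein of the ER related to protein disulfide isomerases in function, and MANF is a small protein that binds BiP in the ER and can also be secreted as a trophic factor for β-cells and neurons. All 3 are known targets of the unfolded protein response, in which the sensors ATF6 and IRE1, the latter through XBP1, act on ER stress response elements in gene promoters. SDF2 has the same fold and the same partners as SDF2L1 but is made constitutively.

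The promoters are shown because such elements are the sequence feature by which targets of ATF6 and XBP1 are usually recognized. Promoter sequence was taken from RefSeq for the rat assembly GRCr8, which holds 27457 promoters of 250 bases before and 50 bases after the annotated start of a gene. Of the 4 genes, 3 matched by symbol, and Manf did not. The bases before the start are printed 5′ to 3′ on the strand of the gene, with every CCAAT and every CCACG in capitals, in either orientation (ATTGG and CGTGG on the other strand).
Sdf2l1, GRCr8 chr11:97376628-97376877, plus strand: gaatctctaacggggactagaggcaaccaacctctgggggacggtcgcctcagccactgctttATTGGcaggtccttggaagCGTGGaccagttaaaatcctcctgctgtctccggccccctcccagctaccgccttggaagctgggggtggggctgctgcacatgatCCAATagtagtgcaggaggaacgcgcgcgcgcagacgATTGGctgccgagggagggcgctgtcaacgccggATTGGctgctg
Creld2, GRCr8 chr7:121789134-121789383, plus strand: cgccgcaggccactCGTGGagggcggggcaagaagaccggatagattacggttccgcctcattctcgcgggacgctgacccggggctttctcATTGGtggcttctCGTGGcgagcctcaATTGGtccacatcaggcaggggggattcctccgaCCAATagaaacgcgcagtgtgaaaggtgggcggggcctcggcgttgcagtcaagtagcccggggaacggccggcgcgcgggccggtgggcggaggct
Sdf2, GRCr8 chr10:63638384-63638633, plus strand: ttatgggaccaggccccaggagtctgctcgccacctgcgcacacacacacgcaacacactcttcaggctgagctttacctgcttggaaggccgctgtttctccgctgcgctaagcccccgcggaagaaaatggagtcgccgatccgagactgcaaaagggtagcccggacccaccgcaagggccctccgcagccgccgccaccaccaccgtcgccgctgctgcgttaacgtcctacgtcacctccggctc

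The classical ER stress response element (ERSE) was searched on both strands as CCAAT and, 9 bases after it, CCACG, both of which also count in the searches for the single boxes. One match was found in Creld2, on the minus strand, from 145 to 127 bases before the start, and it reads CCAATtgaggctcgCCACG. Only 21 of the 27457 promoters, 0.0765%, held this element. The promoter of Sdf2l1 held 4 CCAAT boxes and 1 CCACG, but none of them at the spacing of the element. The promoter of Sdf2 held neither box, while CCAAT was present in 37.7% and CCACG in 32.5% of all promoters. ERSE-II, searched as ATTGG, 1 base and CCACG, was present in 15 promoters (0.0546%), and the XBP1-binding core TGACGTGG in 175 (0.637%). None of the 3 promoters held either of these. A match of letters is a description of the window and not a mapped binding site.

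The same search was made in the 47 genes of 5 lists of related genes that are described further on, of which 39 had a promoter in the table. An ERSE or ERSE-II was present in 10 of these 39, against 36 of all 27457 promoters. They included 4 of 8 genes of the chaperone complex. The lists hold known targets of ATF6 and XBP1, which are usually recognized by these elements. These counts therefore describe the choice of the lists and carry no further weight. In Hspa5 the element reads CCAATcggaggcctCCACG and ends 25 bases before the start, and in Dnajb11 an ERSE-II reads ATTGGcCCACG. Hsp90b1, which encodes the ER Hsp90 chaperone GRP94, held 2 ERSE, and Hyou1, the nucleotide exchange factor of BiP, held 2 ERSE-II.

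Signals are given as linear intensities after quantile normalization, in arbitrary units. They serve to compare 1 probe set between arrays, never 1 probe set with another. With 3 arrays a group, their number limits how precise any value is. The arrays held the RNA of β-like cells, since all 9 β-cell markers with a probe set were among the tested ones, while none of 6 acinar and duct markers and 2 of 7 fibroblast markers (Pdgfra and Thy1) were. Of 5 markers of other islet cells only glucagon (Gcg) was tested, and the summed signal of these 5 lay between 435 and 2467 in untreated and between 214 and 1215 in treated cells at 24 h, between 1591 and 2186 and between 368 and 401 at 48 h, and between 108 and 2249 and between 260 and 425 at 5 days. Its part in any result was not tested. One array stood apart, that of experiment 2 with doxycycline for 5 days, in which the ratio of the 3′ to the 5′ control probe set of GAPDH was 2.91 against 1.05 to 1.19 in the other 17. Its median correlation with the other arrays was 0.870, against 0.956 to 0.977. In addition, the 5-day pair of experiment 1 ran the other way. Over 15517 probe sets without the 4 genes, its log2 ratios correlated with the mean ratios of 24 h and 48 h at -0.498 and -0.458, against 0.119 and 0.208 for experiment 2 and 0.465 and 0.548 for experiment 3. Results at 5 days are given as labelled and with the 2 labels of this pair exchanged. Whether the labels were exchanged was not tested.

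After 24 h the signals of Sdf2l1, Creld2 and Manf were all higher in the doxycycline-treated cells, by 2.29 to 4.03-fold on average. The signal of Sdf2l1 was 1103, 1759 and 1812 in the untreated cells of experiments 1, 2 and 3, and 5369, 6120 and 6762 with doxycycline. Every treated array lay above every untreated one, and the ratio was 4.03 ± 0.739 (SD, n = 3), or 1.99 ± 0.26 on the log2 scale. Creld2 gave 1360, 2798 and 2547 in untreated cells and 4536, 7496 and 6540 with doxycycline. Its groups did not overlap, and the ratio was 2.86 ± 0.414 (SD, n = 3). Manf gave 2585, 3342 and 3783 without and 6459, 7407 and 8119 with doxycycline. Its ratio was 2.29 ± 0.187 (SD, n = 3), with no overlap between the groups. Among the 15521 tested probe sets ordered by mean log2 ratio, Sdf2l1 ranked 7, Creld2 11 and Manf 22.

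The relative Sdf2 gave 2408, 2665 and 2550 in untreated and 2277, 2606 and 2546 in treated cells at 24 h. The groups overlapped, and the ratio was 0.974 ± 0.0265 (SD, n = 3). A ratio of at least 2 in each of the 3 experiments was thus found for 3 of the 4 genes, beside 0.0966% of all tested probe sets. Groups without overlap, with doxycycline higher, were found for the same 3, beside 5.03% of all. Because the genes were selected on this contrast, these counts carry no further weight.

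**Figure D1:**
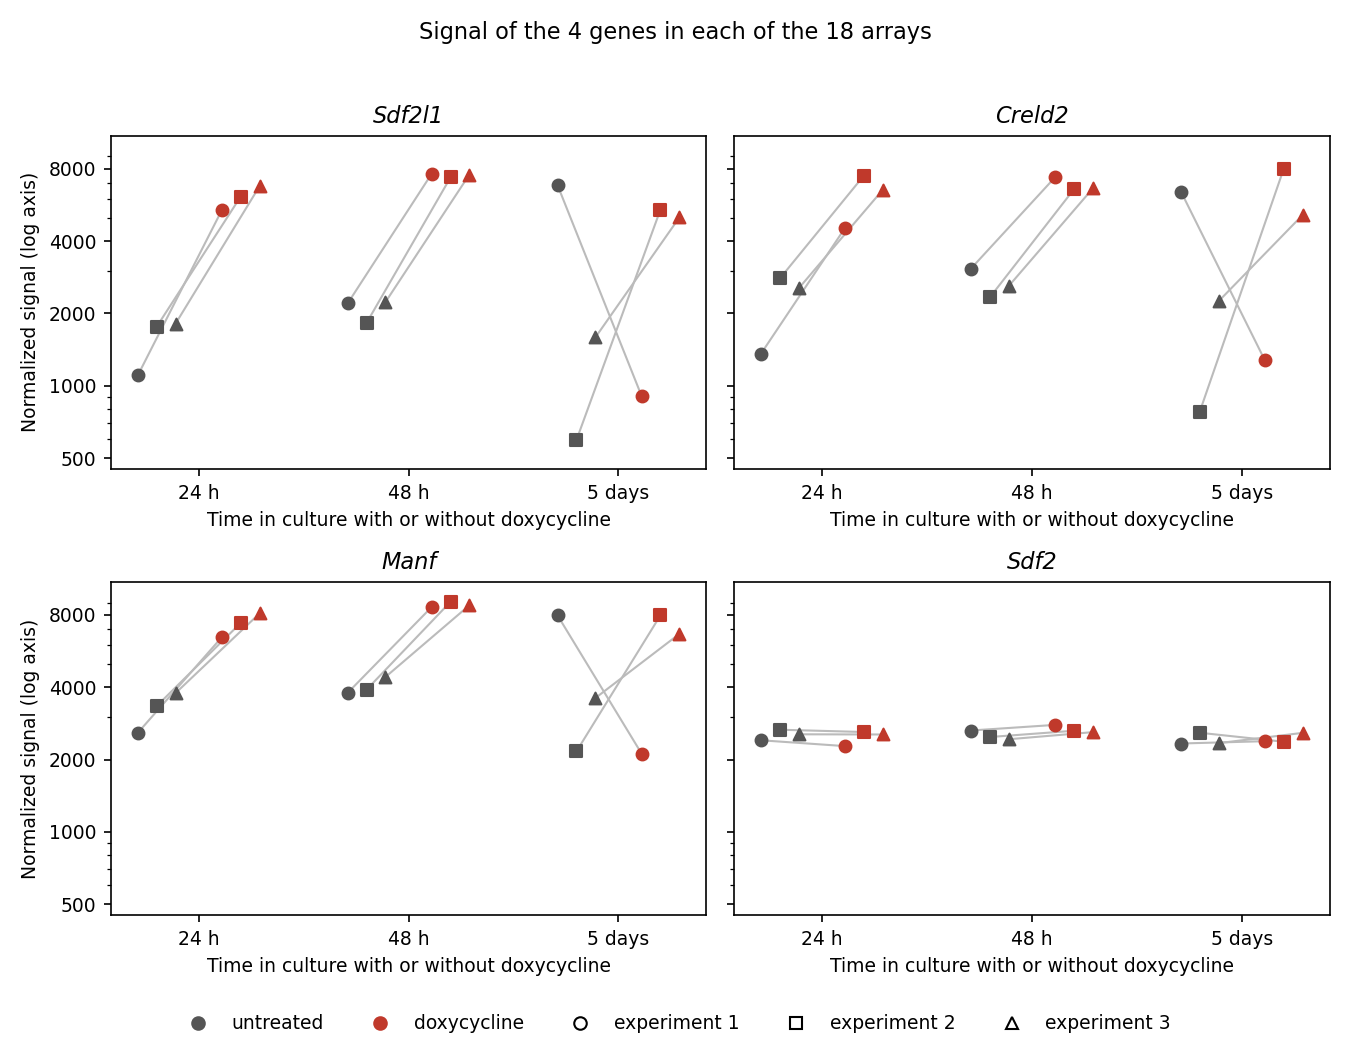
Normalized signal (log axis) of Sdf2l1, Creld2, Manf and Sdf2 in each of the 18 arrays, by time, with untreated cells in grey and doxycycline-treated cells in red; marker shapes are the 3 experiments and a line joins the 2 arrays of each pair. Lines slope upward for the first 3 genes at 24 h and 48 h and downward for experiment 1 at 5 days, while those of Sdf2 are level, with signals between 2277 and 2791.

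At 48 h the picture was much the same. Sdf2l1 gave 2201, 1826 and 2229 in untreated and 7621, 7364 and 7569 in treated cells. The treated arrays were close together, and the ratio was 3.63 ± 0.351 (SD, n = 3). Creld2 gave 3073, 2333 and 2600 without and 7364, 6564 and 6620 with doxycycline, a ratio of 2.59 ± 0.211 (SD, n = 3). Manf gave 3794, 3912 and 4415 without and 8633, 9082 and 8784 with doxycycline, a ratio of 2.20 ± 0.180 (SD, n = 3). None of these groups overlapped. In the order of mean log2 ratio Sdf2l1 ranked 12, Creld2 28 and Manf 57.

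Sdf2 gave 2644, 2484 and 2432 in untreated and 2791, 2638 and 2604 in treated cells at 48 h. Its ratio was 1.06 ± 0.00767 (SD, n = 3), slightly above 1 in each experiment, although the highest untreated array lay above the lowest treated one. At this time a ratio of at least 2 in every experiment held for 2 of the 4 genes, beside 0.277% of all tested probe sets. Manf missed it with 1.99 in experiment 3. Groups without overlap were found for 3 of 4, beside 11.3% of all tested probe sets.

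The log2 ratios followed the same order in each of the 6 pairs of 24 h and 48 h. Sdf2l1 had the highest log2 ratio, Creld2 the next and Manf the lowest. The log2 ratio of Sdf2l1 exceeded that of Manf by 0.80 ± 0.16 at 24 h and by 0.72 ± 0.10 at 48 h (SD, n = 3). That of Creld2 lay 0.49 ± 0.096 and 0.49 ± 0.064 below Sdf2l1, and exceeded Manf by 0.32 ± 0.087 and 0.24 ± 0.15. These are differences of ratios between probe sets, which can differ in how steeply they read RNA. As the pairs were among the values that singled out the genes, the order is not tested.

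**Figure D2:**
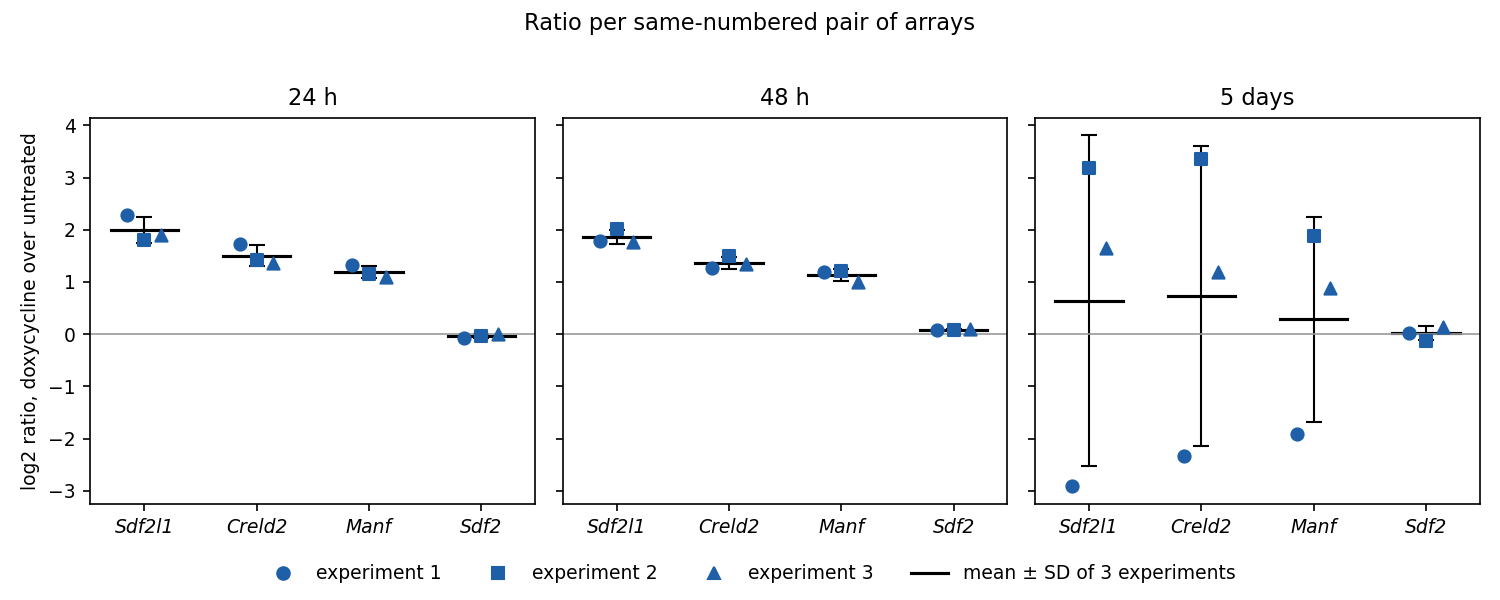
log2 ratio of doxycycline-treated to untreated cells for each same-numbered pair of arrays at the 3 times, for Sdf2l1, Creld2, Manf and Sdf2; marker shapes are the 3 experiments, the horizontal bar is their mean and the whisker 1 SD. The ratios step down from Sdf2l1 to Manf at 24 h and 48 h, Sdf2 stays near 0, and at 5 days experiment 1 lies below 0 for the first 3 genes.

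The 5-day cultures varied far more. Sdf2l1 gave 6825, 595 and 1589 in the arrays labelled untreated and 907, 5408 and 5014 in those labelled doxycycline. Experiment 1 was thus lower with doxycycline, with a log2 ratio of -2.91, while experiments 2 and 3 gave 3.18 and 1.66. The direction of experiment 1 is opposite to the one that the study lists for it. Creld2 gave 6431, 781 and 2249 untreated and 1276, 8006 and 5138 with doxycycline, for log2 ratios of -2.33, 3.36 and 1.19. Manf gave 7963, 2166 and 3609 untreated and 2120, 7975 and 6674 with doxycycline, for log2 ratios of -1.91, 1.88 and 0.89. In these 3 genes the array labelled untreated in experiment 1 lay among the treated arrays and its partner among the untreated ones, so that the groups overlapped. Sdf2 gave 2335, 2588 and 2343 untreated and 2387, 2374 and 2586 with doxycycline, with a mean log2 ratio of 0.017 ± 0.13 (SD, n = 3).

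As labelled, the mean log2 ratio at 5 days was 0.64 ± 3.17 for Sdf2l1, 0.74 ± 2.87 for Creld2 and 0.29 ± 1.96 for Manf (SD, n = 3). With the labels of experiment 1 exchanged it was 2.58 ± 0.81, 2.29 ± 1.08 and 1.56 ± 0.58. Without experiment 1 it was 2.42, 2.27 and 1.38, and without experiment 2, whose treated array stood apart, it was -0.63, -0.57 and -0.51. Experiment 2 also held the lowest untreated signal of each of the 3 genes in the series. As labelled, none of the 4 genes had a ratio of at least 2 in every experiment, and 0% of all tested probe sets did. None of the 4 was free of overlap, beside 3.73% of all. With exchanged labels 2 of 4 reached a ratio of 2 in every experiment, beside 0.11% of all, and 3 of 4 did not overlap, beside 6.54%. The exchange turns the sign of the log2 ratios of experiment 1, which were negative in Sdf2l1, Creld2 and Manf. The counts with exchanged labels therefore carry no weight.

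Over all 18 arrays the signal of Sdf2l1 ran from 595 to 7621, a 12.8-fold range, that of Creld2 covered 10.3-fold and that of Manf 4.28-fold. Sdf2 stayed between 2277 and 2791, a 1.23-fold range. The SD of its log2 signal, 0.0805, was at the 0.767th percentile of all tested probe sets. The SD of Sdf2l1 stood at the 99.7th percentile, that of Creld2 at the 99.4th and that of Manf at the 97.9th. Sdf2 was chosen for the absence of a doxycycline difference in these arrays, and the others for its presence. The percentiles therefore partly restate that choice. Among the untreated arrays of 24 h and 48 h alone, Sdf2l1 spanned 2.02-fold, Creld2 2.26-fold and Manf 1.71-fold, and among the treated ones 1.42-fold, 1.65-fold and 1.41-fold. The lowest treated array still lay above the highest untreated one by 2.41-fold for Sdf2l1, 1.48-fold for Creld2 and 1.46-fold for Manf. The genes were chosen on this contrast, and the share of all tested probe sets with such a gap was not counted. The gaps therefore carry no weight.

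Ordered by mean log2 signal and as labelled, the 6 groups followed the same sequence for Sdf2l1 and Creld2 and for Manf. Untreated cells of 24 h were lowest, followed by untreated cells of 5 days and 48 h, then by treated cells of 5 days, 24 h and 48 h. Each group overlapped with its neighbour in this sequence, except that the treated cells of 48 h lay wholly above those of 24 h for Sdf2l1 (7364 to 7621 against 5369 to 6762) and for Manf (8633 to 9082 against 6459 to 8119). How many of all tested probe sets were separated in this way was not counted, so the separation carries no weight. The sequence turned with the labels of the 5-day pair of experiment 1 exchanged. Untreated cells of 5 days then came below those of 24 h, by a log2 difference of -0.68 for Sdf2l1, -0.70 for Creld2 and -0.33 for Manf, and treated cells of 5 days came above those of 24 h for Creld2 (0.083) and Manf (0.042). For Sdf2 the sequence as labelled was a different one, from untreated cells of 5 days to treated cells of 48 h, and all neighbours overlapped.

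Differences over time within 1 treatment were fitted with limma over all 15521 probe sets, with the 9 arrays of each treatment. The same arrays entered the contrast that singled out the genes, so that these comparisons are not independent of the choice. None of the 4 genes passed. In untreated cells the log2 difference between 48 h and 24 h was 0.45 ± 0.67 (SE) for Sdf2l1, 0.31 ± 0.60 for Creld2, 0.33 ± 0.38 for Manf and -0.012 ± 0.12 for Sdf2. Between 5 days and 24 h it was 0.29 ± 0.67, 0.074 ± 0.60, 0.31 ± 0.38 and -0.070 ± 0.12. All adjusted p-values were between 0.998 and 1.00. In treated cells the difference between 48 h and 24 h was 0.31 ± 0.57 for Sdf2l1, 0.17 ± 0.56 for Creld2, 0.28 ± 0.42 for Manf and 0.11 ± 0.12 for Sdf2. Between 5 days and 24 h it was -1.06 ± 0.57 for Sdf2l1 (adjusted p = 0.784), -0.69 ± 0.56 for Creld2, -0.59 ± 0.42 for Manf and -0.015 ± 0.12 for Sdf2. Those of Sdf2l1, Creld2 and Manf rested on the treated 5-day array of experiment 1. Without it the difference was -0.22 for Sdf2l1, 0.082 for Creld2 and -0.00014 for Manf, and with exchanged labels it was -0.088, 0.083 and 0.042.

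No probe set at all passed in these 4 comparisons, so 0% of those tested were called. At an unadjusted p under 0.05, 210 differed between 48 h and 24 h in untreated and 236 in treated cells, and 610 and 935 between 5 days and 24 h. The methods' t-test also called 0 after adjustment. The 5-day arrays share the estimate of the spread in these fits. With these arrays left out, the adjusted p for Sdf2l1 between 48 h and 24 h was 0.865 in treated and 0.999 in untreated cells, where all alternatives together gave 0.865 to 1.00 and 0.998 to 1.00. Without the untreated 5-day array of experiment 1, the difference between 5 days and 24 h in untreated cells turned to -0.65 for Sdf2l1, -0.69 for Creld2 and -0.19 for Manf. It also turned for Creld2, to -0.25, without the untreated 24 h array of experiment 1.

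The chaperone complex that SDF2L1 joins was measured with 9 genes, all of them tested. Their doxycycline contrast was fitted per time with limma, the 3 pairs as blocks. This list and those below were drawn up with earlier results of these arrays known. They include genes that the study reports as induced on these arrays. Calls within the lists are therefore not independent of that choice. At 24 h, when 0.193% of all tested probe sets were called higher and 0.0129% lower, 1 of the 9 passed, the J-domain protein Dnajb11. Its signal was 2313, 2847 and 3321 in untreated and 4319, 5128 and 6277 in treated cells, a log2 difference of 0.89 ± 0.070 (SE, adjusted p = 0.0303). The other 8 had positive differences that did not pass, from 0.27 for P4hb, a protein disulfide isomerase, to 0.97 for Pdia4, another one. For Hspa5 the difference was 0.81 (adjusted p = 0.0554). With the 12 arrays of 24 h and 48 h fitted together, 7 of the 9 passed at 24 h, Hspa5 among them (adjusted p = 0.00886). In that joint fit 169 of all 15521 tested probe sets were called higher at 24 h.

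At 48 h, when 2.33% of all tested probe sets were called higher and 1.19% lower, 7 of the 9 rose and none fell. The disulfide isomerase Pdia4 rose by 1.23 on the log2 scale, Dnajb11 by 1.03, Hyou1 by 0.88 and the disulfide isomerase Pdia6 by 0.67. Hspa5 rose by 0.67, the prolyl isomerase Ppib by 0.60 and Hsp90b1 by 0.51, with SE from 0.069 to 0.14 and adjusted p-values from 0.0118 to 0.0446 in these 7. P4hb (0.36, adjusted p = 0.0653) and Uggt1, the glucosyltransferase that senses misfolded glycoproteins (0.43, adjusted p = 0.0573), did not pass. Over the alternative fits their adjusted p-values ran from 0.0185 to 0.389 and from 0.0133 to 0.523. In the 7 genes that passed, the highest adjusted p-values over these fits lay between 0.374 for Pdia4 and 0.552 for Hyou1. The median difference of the 9 was 0.70 at 24 h and 0.67 at 48 h, beside -0.0083 and -0.011 over all tested probe sets. The mean log2 ratios at 48 h were 1.86 for Sdf2l1, 1.37 for Creld2 and 1.13 for Manf. These genes were chosen for such ratios, and probe sets can differ in how steeply they read RNA. Their place beside the complex therefore carries no weight.

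**Figure D3:**
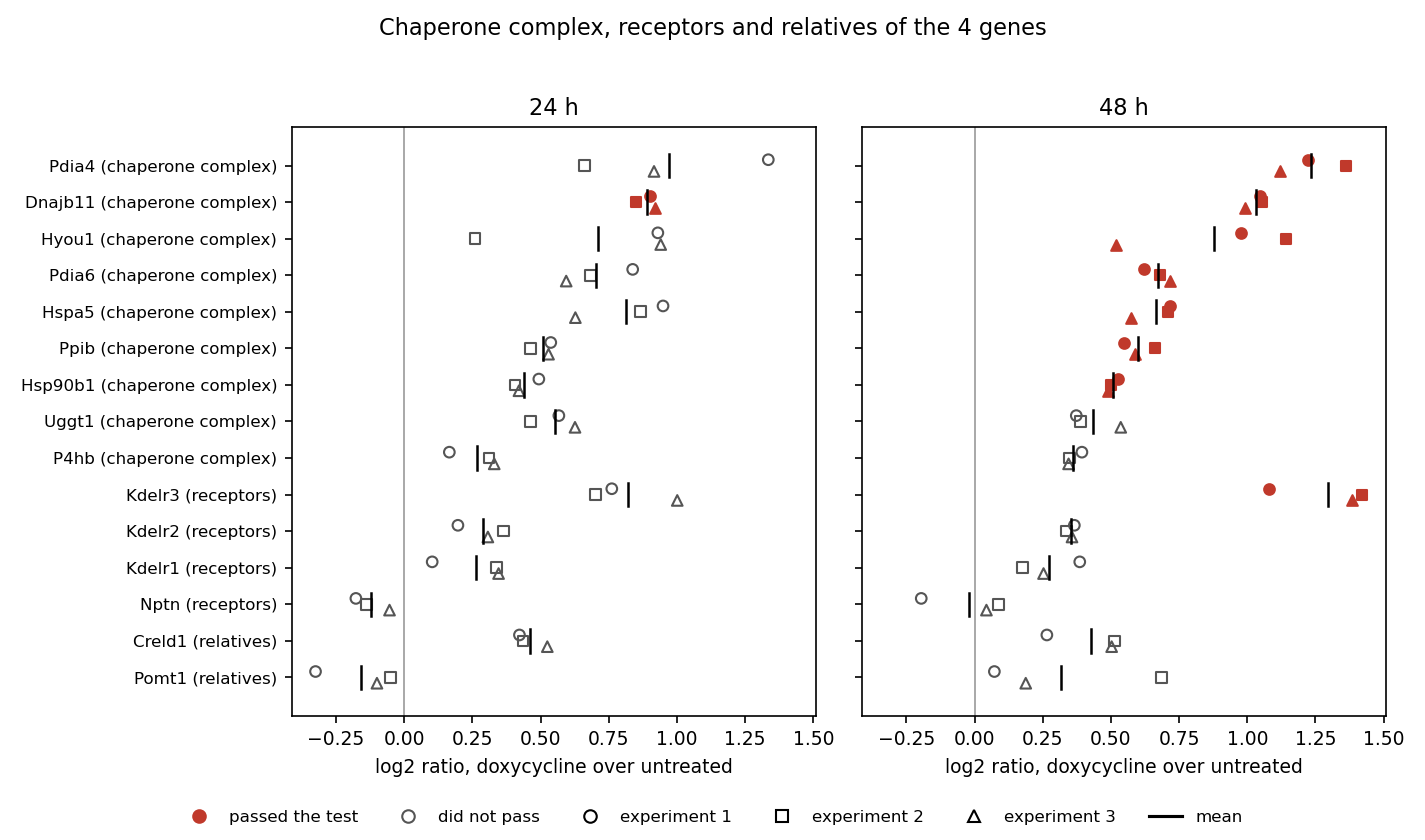
log2 ratio of doxycycline-treated to untreated cells for the chaperone complex, the receptors and the relatives at 24 h and 48 h; marker shapes are the 3 experiments, vertical ticks the mean, and filled red markers genes that passed the limma test. At 24 h only Dnajb11 of these 15 genes passed, and at 48 h 7 genes of the complex and Kdelr3 did.

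Of the relatives of the 4 genes, Creld1, the membrane-bound relative of Creld2, had log2 differences of 0.46 at 24 h (adjusted p = 0.0924) and 0.43 at 48 h (adjusted p = 0.0697). Pomt1, an ER mannosyltransferase with MIR domains as in SDF2, had -0.16 (adjusted p = 0.455) and 0.32 (adjusted p = 0.243). Neither passed. Cdnf, the relative of Manf, and Pomt2 had no probe set with 1 gene and were not analysed here.

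Of the 4 receptors on the list, 1 passed the test at 48 h and none at 24 h. MANF and SDF2L1 end in variants of the KDEL signal, which KDEL receptors bind to return proteins from the Golgi to the ER, and neuroplastin (Nptn) is a reported surface receptor of MANF. The signal of Kdelr3 was 289, 257 and 275 in untreated and 610, 687 and 719 in treated cells at 48 h, so that it rose by 1.29 ± 0.098 on the log2 scale (SE, adjusted p = 0.0137). At 24 h its difference was 0.82 (adjusted p = 0.0534). Kdelr1 had 0.26 and 0.27, Kdelr2 0.29 and 0.35 and Nptn -0.12 and -0.021 at 24 h and 48 h, and none of these passed. With the 12 arrays of 24 h and 48 h fitted together, Kdelr3 passed at 24 h as well (adjusted p = 0.0134), and Kdelr2 at 48 h (adjusted p = 0.0192).

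Of 22 tested genes on a list of other ATF6 and XBP1 targets, 4 rose at 24 h and 14 at 48 h, and none fell. At 24 h these were the prolyl isomerase Fkbp11 (1.25), the BiP co-chaperones Dnajc3 (1.08) and Dnajb9 (0.99), and Selenos (0.74), a component of ER-associated degradation (ERAD). The 4 largest increases at 48 h were those of Herpud1 (1.80), an ERAD protein, Fkbp11 (1.59), Dnajb9 (1.30) and Dnajc3 (1.26). The median of the list was 0.52 and 0.63 at the 2 times. This list too was drawn up with earlier results of these arrays known. Of 5 genes for the stress sensors and their proteases, none passed at 24 h, and at 48 h only Eif2ak3, which encodes PERK, did, with 0.94 ± 0.099 (SE, adjusted p = 0.0242). Atf6 had 0.66 at 48 h (adjusted p = 0.0507), Atf6b 0.25 and the site-2 protease Mbtps2 0.12. Over the alternative fits the adjusted p at 48 h ran from 0.0122 to 0.414 for Atf6 and from 0.00325 to 0.375 for Eif2ak3.

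Over all 5 lists 42 of 47 genes were tested. Of these 5 rose at 24 h and 23 at 48 h, and none fell at either time. The median difference was 0.47 and 0.61, beside -0.0083 and -0.011 over all tested probe sets. At an unadjusted p under 0.05, 35 and 34 were higher and none was lower, beside 7.75% and 12.2% of all tested probe sets that were higher at this threshold. The lists were drawn up with earlier results of these arrays known, so the counts partly restate that choice. They also depended on the fit. At 24 h none passed when any 1 experiment was left out, and at 48 h 0 passed without experiment 1 and 2 each without experiment 2 or 3. None passed at either time in a fit of all 18 arrays or without the filter on dim probe sets, while the 12 arrays of 24 h and 48 h fitted together gave 20 and 30. In that joint fit 169 of all 15521 tested probe sets were called higher at 24 h. At 48 h at most 876 were called higher over all alternatives.

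At 5 days as labelled none of the 42 passed, also none at an unadjusted p under 0.05 and none by the methods' t-test, and 0% of all tested probe sets were called. The median difference was 0.10, beside 0.029 over all. With the labels of experiment 1 exchanged and all 18 arrays in the fit, 21 of 42 were called higher, beside 1.83% of all tested probe sets, with a median of 0.53. With exchanged labels in the 5-day arrays alone none passed. The exchange was prompted by the direction of this pair over the tested probe sets, which include the list genes. It turns the sign of the pair's log2 ratios, so the 21 calls carry no weight.

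Likeness of pattern was measured as the Pearson correlation of log2 signal over the 18 arrays, against 12341 other tested probe sets with 1 gene. The most like Sdf2l1 was Manf (r = 0.989), followed by Dnajb11 (0.981), the ER selenoprotein Selenok (0.980), Creld2 (0.978) and the glutathione-cycle enzyme Ggct (0.976). For Manf the order was Sdf2l1 (0.989), Dnajb11 (0.989), Ggct (0.986), Pdia6 (0.976) and Hspa5 (0.974). For Creld2 it was Sdf2l1 (0.978), the translocon subunit Sec61b (0.974), Manf (0.970), Dnajb11 (0.967) and Ggct (0.966). Dnajb11 and Ggct thus appeared for these 3 genes. Of the other genes named here, Dnajb11 and Ggct held an ERSE-II in the promoter window and Hspa5 an ERSE, Selenok and Sec61b held neither, and Pdia6 was not matched. ERSE-II was present in 15 and ERSE in 21 of all 27457 promoters. Dnajb11 and Hspa5 are genes of the chosen lists, and whether the elements bear on the likeness was not tested. The arrays share the doxycycline contrast and its pairs, so that the points of these correlations are not independent. Sdf2l1, Creld2 and Manf were also chosen for this contrast, and Sdf2 for its absence. Their correlations with one another over the 18 arrays therefore partly restate that choice.

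The arrays formed a low and a high cloud, with the experiment 1 pair of 5 days in the cloud opposite to its label. Within the 6 untreated arrays of 24 h and 48 h, Sdf2l1 correlated with Manf at 0.935 and with Creld2 at 0.924, and Creld2 with Manf at 0.778. Within the 6 treated arrays the values were 0.977, 0.681 and 0.674. Sdf2 had r = 0.172 with Sdf2l1 over the 18 arrays. The genes most like Sdf2 were Hbs1l (0.879), Stk25 (0.859), Ttpal (0.846), Foxa3 (0.825) and Sil1 (0.821), of which Sil1 is a nucleotide exchange factor of BiP. Of the 5 most like genes, the ranking over the 12 arrays of 24 h and 48 h shared 2 for Sdf2l1, 3 for Manf and 0 for Creld2 and Sdf2.

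**Figure D4:**
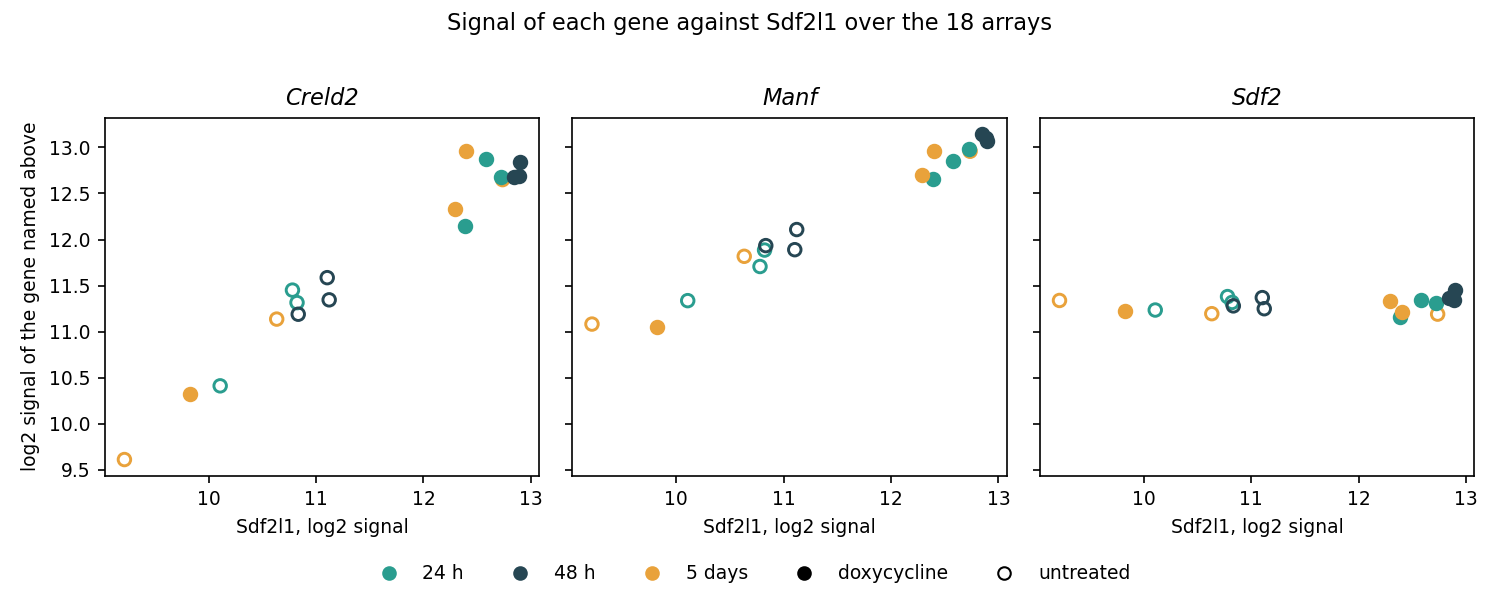
log2 signal of Creld2, Manf and Sdf2 (vertical axes) against that of Sdf2l1 (horizontal axis) in the 18 arrays; colours are times, filled points doxycycline-treated and open points untreated cells. Creld2 and Manf follow Sdf2l1 (r = 0.978 and 0.989), the experiment 1 pair of 5 days lies in the cloud opposite to its label, and Sdf2 is level (r = 0.172).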

How the data were processed

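The authors made labelled cRNA from total RNA of 18 cultures and hybridized it to rat expression arrays of Affymetrix. The deposited values are linear intensities scaled by the authors to a 2% trimmed mean of 500.14 to 500.17. The program behind them is not given in the sources, and no detection calls were used.

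Of 31099 probe sets, 57 controls were left out. Intensities were made comparable by quantile normalization, values under the 10th percentile were raised to it (5.99) and log2 was taken, and the brighter 50 percent by mean log2 signal, 15521, were tested. The platform annotation gives 20826 probe sets 1 gene, 436 several and 9780 none, and 20758 matched the RefSeq table of GRCr8 by gene number. A gene with several probe sets was represented by the brightest on average. Groups and experiments came from the labels, and same-numbered arrays were paired, as the study lists ratios per experiment. Once group means were subtracted, paired arrays correlated at 0.109 to 0.667. No 2 arrays of 153 pairs held identical values. The cultures are called independent experiments by the study.

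Under R 4.3.3, limma 3.58.1 was fitted to the 6 arrays of 1 time with the 3 pairs as blocks, or to the 9 arrays of 1 treatment with time as factor, with Benjamini-Hochberg adjustment and calls at 0.05. The procedure was tested on simulated data. The 4 genes, the 5 lists and the tests were chosen with earlier results of these data known. Named are the 4 genes, the complex, the receptors, the relatives, the 4 largest changes at 48 h of the other lists and the 5 most like genes. Selenos was named after its value was seen. Alternatives were the deposited scaling, the floor, the filter, the blocks, the arrays in the fit, the methods' t-test, each experiment left out, and exchanged labels of the 5-day pair of experiment 1.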

Additional observations from a re-analysis of the deposited data

Results flagged for a closer look

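After quantile normalization, Sdf2 was lower with doxycycline in each of the 3 experiments at 24 h, with a mean log2 ratio of -0.038 ± 0.039. It was higher in each of the 3 at 48 h, with 0.087 ± 0.010 (SD, n = 3). This opposite direction at the 2 times is why it is listed, and the difference between the times was not tested. In experiment 3 at 24 h the log2 ratio was only -0.0027. The deposited signals of that pair ran the other way, with 2566 in treated and 2532 in untreated cells. Both ratios lie within the 1.23-fold range of Sdf2 over the 18 arrays.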

How the results depend on the processing

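The order and direction of the ratios of Sdf2l1, Creld2 and Manf at 24 h and 48 h were kept under the deposited scaling, the other floor and each experiment left out. The number of list genes called higher at 24 h, 5, was 0 without the filter, 0 with no replicate block, 0 with all 18 arrays, 0 by the methods' t-test and 0 to 0 without 1 experiment, and 20 with 1 fit to the 6 pairs of 24 h and 48 h together. At 48 h, 23 became 0 without the filter, 0 with all 18 arrays, 12 by the t-test and 0 to 2 without 1 experiment, with 18 when the replicate block was dropped. At 5 days 0 became 21 with exchanged labels and all 18 arrays. Over all tested probe sets, the 30 called higher at 24 h ranged from 0 to 169 and the 361 at 48 h from 0 to 876, the 2 and 185 called lower from 0 to 45 and 0 to 734, and 284 higher and 141 lower were called at 5 days with exchanged labels. The cause was not tested. The Sdf2 ratio at 48 h moved from 0.087 to 0.10 with the deposited scaling, and its correlation with Sdf2l1 from 0.172 to 0.304 over 12 arrays and 0.353 with the deposited scaling. None of the time differences passed in any setting. A replicate block cannot move a difference between balanced groups, here 0.45 for Sdf2l1 between 48 h and 24 h in untreated cells. Several changed sign. In untreated cells between 48 h and 24 h, Sdf2 was 0.00517 with the deposited scaling and -0.050 to 0.023 without 1 array, and Creld2 -0.0096 to 0.51 without 1 array. Between 5 days and 24 h, exchanged labels gave Sdf2l1 -0.68, Creld2 -0.70 and Manf -0.33, and leaving out 1 array gave -0.65 to 1.11, -0.69 to 0.83 and -0.19 to 0.75. In treated cells between 48 h and 24 h, Creld2 was -0.034 to 0.33 without 1 array. Between 5 days and 24 h, exchanged labels gave Creld2 0.083 and Manf 0.042, Sdf2 was 0.016 with the deposited scaling, and leaving out 1 array gave -1.24 to 0.082 for Creld2 and -0.074 to 0.023 for Sdf2. Nptn at 48 h was -0.076 to 0.066 without 1 experiment. Normalizing only the 12 arrays of 24 h and 48 h, or the 17 without the array that stood apart, was chosen after seeing the data. The first gave 5 and 24 list genes called at 24 h and 48 h, and under the second the log2 ratios of Sdf2l1 at these times were 1.99 and 1.86.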

Other observations

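Among the 6 treated arrays of 24 h and 48 h, the narrow variation of Sdf2 ran with that of the other 3 genes, with r = 0.854 with Sdf2l1, 0.922 with Creld2 and 0.822 with Manf. In the 6 untreated arrays of these times the values were 0.427, 0.728 and 0.144. With 6 arrays, and with a range of 1.23-fold for Sdf2, these are descriptions only.

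Some genes of the lists have further probe sets. The second probe set of Pdia3, a disulfide isomerase of the glycoprotein cycle, gave log2 differences of 0.94 at 24 h and 0.89 at 48 h (adjusted p = 0.0495 and adjusted p = 0.0351), against 0.46 and 0.63 for the one used. The 3 probe sets of Canx gave 0.40, 0.41 and 0.15 at 24 h and 0.52, 0.35 and 0.33 at 48 h, and only the one used passed at 48 h. The second probe set of Hyou1, which was too dim to be tested, gave 0.47 and 0.68.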
